A study of Rattus norvegicus with 9 samples.

Results

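Gene expression was compared between mesenteric arteries of adult rat offspring whose dams drank sucrose in pregnancy (high sucrose) and arteries of control offspring. The members are all features of the count files with at least 10 counts in at least 3 of the 6 mesenteric libraries, 14197 of 30452 features. Of the 14197, 12749 carried a gene symbol and 1448 an Ensembl identifier. Dams of both groups ate a standard diet. Control dams drank ordinary water and high-sucrose dams drank water with 20% sucrose. The offspring were 3 to 5 months old, the arteries were dissected under a microscope, and poly(A) RNA was sequenced. No strain, sex, litter or artery order is stated in the labels, and nothing says that the 3 libraries of a group came from separate animals, so p-values measure the spread between these samples, which may be technical. The libraries are called control 1, 2 and 3 and high-sucrose 1, 2 and 3, and values of each group are always listed in that order.

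Mesenteric arteries feed the gut and, through the tone of their smooth muscle, help to set blood pressure. Their wall holds an endothelium that releases dilators such as nitric oxide, layers of contractile smooth muscle, and an outer coat of fibroblasts, nerves and fat. Cells under stress make chaperones that fold or hold proteins, and arterial cells keep a circadian clock in which the activators Arntl and Clock or Npas2 drive the repressors Per and Cry.

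Total counts ran from 10388231 to 14910903 in the 6 libraries, and the members held at least 99.8% of them. The share of counts from mitochondrially encoded genes was 12.8% to 16.7% in control and 13.8% to 20.0% in high-sucrose libraries. Each library carried the smooth muscle genes Acta2 (1043 to 8119.9 CPM, counts scaled to a common library size) and Myh11 (2926 to 14062 CPM) and the endothelial gene Pecam1 (546 to 1057 CPM). Gut and pancreas transcripts were near 0, with 0 of 9 listed names on 1 line passing the count filter. The Y-linked gene Kdm5d was at or above 28.1 CPM in all 6 libraries.

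Libraries of the same group differed from each other as much as libraries of different groups did. Over the members, the median absolute difference in log2 CPM was 0.31 to 0.43 for the 6 pairs within a group (median 0.37) and 0.31 to 0.43 for the 9 pairs between groups (median 0.34). The group accounted for 13.8% of the variance of log2 CPM, where 1 of 5 degrees of freedom is 20%. None of the 5 principal components put all high-sucrose libraries on 1 side of all controls.

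The 2 leading components followed cell type markers and immediate early genes rather than the group. Component 1 (36.6% of the variance) was lowest in control 2 and next in high-sucrose 3. The same libraries had the lowest mean of 8 smooth muscle markers, 10.85, 9.25 and 10.50 log2 CPM in the controls and 10.25, 10.67 and 9.85 log2 CPM in the high-sucrose libraries. They also had the highest mean of 13 blood endothelium markers, at 6.22, 7.11 and 6.47 log2 CPM against 6.76, 6.41 and 7.66 log2 CPM. In such bulk samples fewer cells of a type and less RNA per cell cannot be told apart. Component 2 (25.4%) was lowest in control 3 and high-sucrose 3, where the immediate early genes, which are transcribed within minutes of a stimulus, were highest. Fos, one of them, was at 497, 717 and 2540.1 CPM in the controls and at 322, 219 and 2300.5 CPM in the high-sucrose libraries. One library of each group thus stood apart on either component. Their part in the gene differences below was tested only as far as each library was left out in turn.

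**Figure D1:**
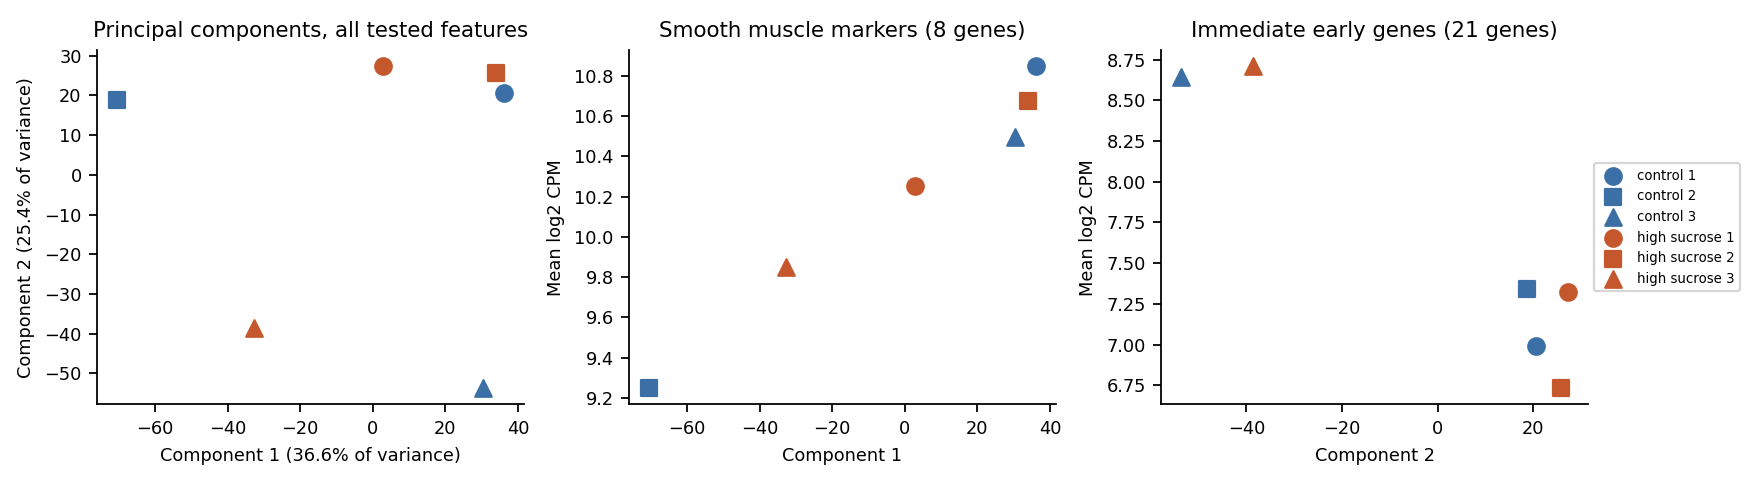
Each point is 1 mesenteric artery library, blue for control and orange for high sucrose, with circle, square and triangle for replicates 1, 2 and 3. The left panel plots components 1 and 2 of log2 CPM over all members (36.6% and 25.4% of the variance), the middle panel the mean log2 CPM of smooth muscle markers against component 1, and the right panel that of immediate early genes against component 2. Control 2 and high-sucrose 3 sit low on component 1, and control 3 and high-sucrose 3 low on component 2.

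The comparison asked which genes differed after the prenatal sucrose exposure. The chaperone genes Hspe1 and Cryab were higher in every high-sucrose library than in every control. Apcdd1l, Crot, Thy1, Pik3r1 and Appl2 were lower in every one, but no gene passed edgeR's test over all members. The quasi-likelihood test of edgeR called 0 of 14197 features at a Benjamini-Hochberg adjusted p under 0.05 (0%), and the lowest adjusted p was 1.00. Before adjustment 284 features had p under 0.05 (2.00%), 124 higher (0.873%) and 160 lower (1.13%). All 3 high-sucrose libraries lay above all 3 controls for 413 features (2.91%) and below them for 462 (3.25%), 875 features without overlap in all (6.16%). The fitted log2 fold change was above 0 for 7134 members and below 0 for 7063, with a median of 0.00. limma-voom called 0 features, and DESeq2 called 3 (0.0211%), given next.

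The precision depended on the level of a gene. The 95% interval of the fold change lay within 2-fold in either direction for 8167 members (57.5%). Among 5396 members at an average log2 CPM of 5 or more this share was 79.3%, with a median standard error of 0.22 (log2). It was 52.2% of 7443 members between 1 and 5, with a median standard error of 0.32, and 0.15% of 1358 members under 1, with 0.63. For the rarest transcripts the interval almost always reached beyond 2-fold at this depth and number of libraries. These shares measure precision and are not a limit of detection, as edgeR called no feature at any level.

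The 3 genes called by DESeq2 were Cryab, Hspe1 and Apcdd1l. Hspe1, the lid of the chaperonin that folds proteins in the mitochondrial matrix, was at 98.7, 88.4 and 88.8 CPM in the controls and at 273, 182 and 181 CPM in the high-sucrose libraries. The controls differed by little, and each high-sucrose library lay well above them. Its log2 fold change was 1.20 ± 0.22 SE, 95% interval 0.69 to 1.71, with an adjusted p of 0.00815 by DESeq2. Cryab, the small heat shock protein alpha-B-crystallin of muscle, was at 355, 336 and 293 CPM in the controls and at 1044, 868 and 599.5 CPM in the high-sucrose libraries. High-sucrose 1 was highest and high-sucrose 3 lowest of its group, still above all controls. The log2 fold change was 1.35 ± 0.26 SE, 95% interval 0.75 to 1.95, with an adjusted p of 0.00778 by DESeq2. Apcdd1l, a membrane glycoprotein gene related to the Wnt inhibitor Apcdd1, was at 22.6, 27.4 and 24.3 CPM in the controls and at 11.3, 7.08 and 10.7 CPM in the high-sucrose libraries. All 3 high-sucrose libraries were below the lowest control. The log2 fold change was −1.35 ± 0.23 SE, 95% interval −1.89 to −0.80, with an adjusted p of 0.00815 by DESeq2.

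Leaving out libraries moved these calls. In edgeR the adjusted p of all 3 genes was 1.00. In DESeq2 with 1 library left out, the adjusted p ran from 1.4e-07 to 0.159 for Cryab, from 0.00362 to 0.201 for Hspe1 and from 0.0226 to 0.171 for Apcdd1l. All 3 were above 0.05 without control 1 or control 3, and Cryab also without high-sucrose 2. In edgeR with 1 library left out the fold changes were 0.99 to 1.31 for Hspe1, 1.17 to 1.54 for Cryab and −1.47 to −1.16 for Apcdd1l. The groups do not overlap for these genes, so leaving out 1 library could hardly reverse their direction, and the kept direction is no further support.

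Among the other higher genes with the smallest p were an adhesion molecule, lipid-handling genes and a clock repressor. Sdk2, a cell adhesion protein of the immunoglobulin family, was at 14.3, 8.76 and 14.1 CPM in the controls and at 23.2, 31.7 and 24.5 CPM in the high-sucrose libraries (1.09 log2). Itprip, which binds the inositol trisphosphate receptor, was at 9.02, 10.9 and 10.6 CPM against 22.9, 14.9 and 24.4 CPM (1.03). Both were separated between the groups, Sdk2 with its highest value in high-sucrose 2. Rbp7, a retinoid binding protein of endothelium and fat, was at 7.36, 10.3 and 4.73 CPM against 15.1, 37.2 and 22.5 CPM (1.73). Cd300lg, a receptor of capillary endothelium, was at 1.39, 2.01 and 0.650 CPM against 4.74, 16.8 and 4.26 CPM (2.65). In both genes high-sucrose 2 was the highest library, which was also the highest for the adipocyte markers described below. Rfx2, a transcription factor, was at 14.9, 13.8 and 14.9 CPM against 23.1, 26 and 22.1 CPM (0.70), with little spread in either group. Bcat1, the cytosolic enzyme that starts the breakdown of branched-chain amino acids, was at 18.1, 16.6 and 16.1 CPM against 53, 22.2 and 35.9 CPM (1.13), highest in high-sucrose 1.

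Lower genes with the smallest p included genes of the adventitia, of growth factor signalling and of peroxisomes. Sema3c, a secreted guidance protein of the semaphorin family, was at 96.3, 111 and 128 CPM in the controls and at 57.2, 55.4 and 76.2 CPM in the high-sucrose libraries (−0.83 log2). Ehbp1, which links endocytosis to actin, was at 58.7, 56.5 and 58.7 CPM against 30.4, 41.1 and 37 CPM (−0.68). The controls of Ehbp1 were nearly equal and the high-sucrose libraries all lay below them. Maged2, a MAGE family protein, was at 57.2, 36.2 and 49.1 CPM against 29.4, 23.8 and 26.6 CPM (−0.83), also with no overlap. Appl2, an adaptor of adiponectin and insulin signalling, was at 63.6, 71.8 and 56.2 CPM against 41.9, 44.7 and 39.6 CPM (−0.60 ± 0.16 SE, 95% interval −0.98 to −0.23). A choice by smallest p favours genes whose groups do not overlap, so that separation is no further support for them.

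**Figure D2:**
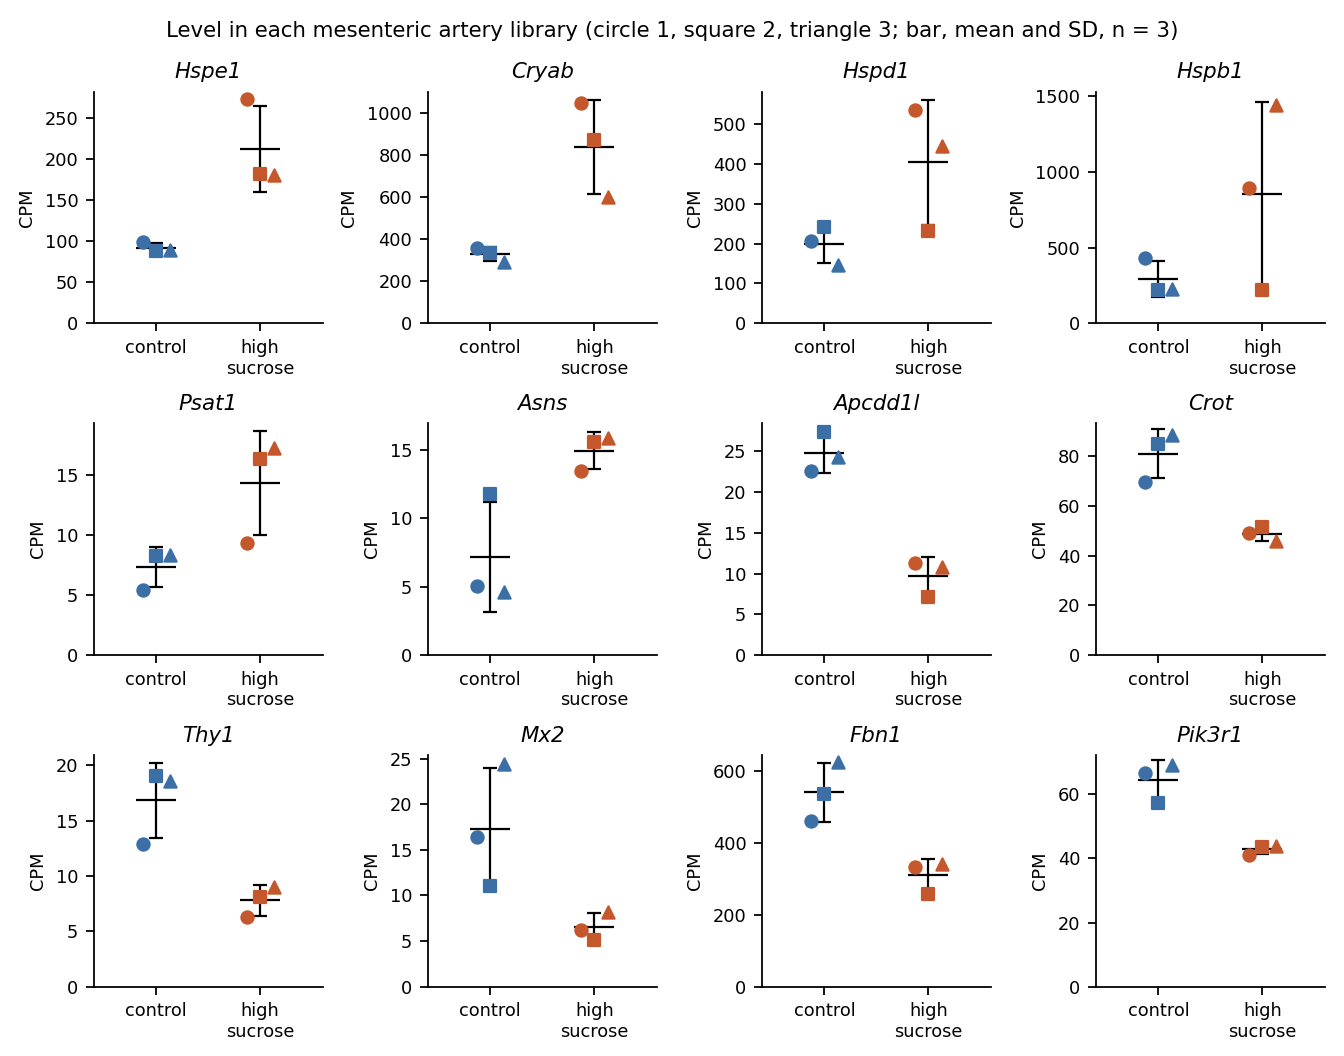
The panels show 12 genes, with CPM on a linear axis from 0 for control (blue) and high-sucrose (orange) libraries, circle, square and triangle for replicates 1, 2 and 3, and a bar for the mean ± SD (n = 3 per group). Hspe1 and Cryab are higher and Apcdd1l, Crot, Thy1, Mx2, Fbn1 and Pik3r1 lower in every high-sucrose library, while Hspd1 and Hspb1 overlap the controls through high-sucrose 2.

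Mitochondrial chaperonins and small heat shock proteins include both higher genes called by DESeq2. Of 11 tested members 7 were higher and 4 lower, with a median log2 fold change of 0.28 beside 0.00 over all features, and 2 were higher (2.91% of all features) and 1 lower (3.25%) in all 3 high-sucrose libraries. Hspd1, the chaperonin barrel that Hspe1 closes, was at 207, 242 and 147 CPM in the controls and at 535, 230.2 and 446 CPM in the high-sucrose libraries (1.02 ± 0.35 SE, 95% interval 0.21 to 1.84). Hspb1, a small heat shock protein that binds actin and misfolded proteins, was at 429.9, 217 and 229 CPM against 897, 219 and 1443 CPM (1.55 ± 0.63 SE, 95% interval 0.06 to 3.04). Both were high in high-sucrose 1 and 3 and within the control range in high-sucrose 2. Hspe1 and Cryab, in contrast, were above every control in high-sucrose 2 as well.

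The genes Hspe1 and Hspd1 are neighbours that are transcribed away from each other. Their windows of 250 bases before to 50 bases after the start (RefSeq, build GRCr8) share 211 bases on chromosome 9. The window of Hspe1, chr9:64084077-64084376 on the plus strand, is shown because it holds the heat shock element, here the units GAA, TTC and GAA in a row with 2 bases between units, to which heat shock factors bind. Capitals mark 2 overlapping matches, 65 to 48 bases before the start of Hspe1.
Hspe1 promoter: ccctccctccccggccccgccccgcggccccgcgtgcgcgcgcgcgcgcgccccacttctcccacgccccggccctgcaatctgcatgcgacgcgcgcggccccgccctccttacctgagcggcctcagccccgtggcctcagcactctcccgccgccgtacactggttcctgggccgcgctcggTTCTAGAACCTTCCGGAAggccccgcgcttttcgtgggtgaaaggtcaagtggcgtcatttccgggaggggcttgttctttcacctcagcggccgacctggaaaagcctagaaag
The same bases lie in the window of Hspd1, chr9:64083988-64084287 on the minus strand. Searched on both strands, the element was in 2 of 8 members of this list with a promoter entry (Hspe1 and Hspd1), in 4 of 24 of the cytosolic list (Chordc1, Dnaja1, Hspa8 and Hsph1) and in 0.798% of all 33469 promoters. A match describes the sequence and is no measured site.

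Cytosolic HSP70 and HSP90 chaperones and their partners had the lowest list mean in high-sucrose 2 and the highest in high-sucrose 3. Of 27 tested members 22 were higher and 5 lower (median 0.18), with 0 at an unadjusted p under 0.05 in edgeR (2.00% of all features). Dnajb6 (0.12) and Dnaja2 (0.08), partners of HSP70, were the 2 members higher in all 3 high-sucrose libraries (2.91% of all features), by little. The list averaged 6.83, 6.78 and 6.38 log2 CPM in the controls and 7.06, 6.28 and 7.27 log2 CPM in the high-sucrose libraries. Hsph1, an HSP110 nucleotide exchange factor, was at 194, 293 and 126 CPM in the controls and at 719.5, 87.7 and 869 CPM in the high-sucrose libraries (1.45 ± 0.74 SE, 95% interval −0.30 to 3.20). Hsp90aa1, the inducible cytosolic HSP90, was at 939, 1536 and 360.0 CPM against 2159, 829 and 2991 CPM (1.08). Fkbp4, a co-chaperone of steroid receptors, was at 123, 65.9 and 71.6 CPM against 165, 88 and 280.4 CPM (1.03). In each of these 3 genes high-sucrose 3 was the highest library, and high-sucrose 2 lay inside or below the range of the controls.

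Genes of the endoplasmic reticulum gave a split picture. Its chaperones had 13 of 18 members higher (median 0.21), but the median ran from −0.08 to 0.41 with 1 library left out, and was negative without high-sucrose 3. Hspa5, the HSP70 of that compartment, was at 614, 471 and 464 CPM in the controls and at 623, 282 and 1564 CPM in the high-sucrose libraries, so high-sucrose 2 was the lowest and high-sucrose 3 the highest of all. Sil1, the exchange factor of Hspa5, was lower in all 3, at 34.5, 22.3 and 25.4 CPM against 18, 17.6 and 18.4 CPM (−0.61 ± 0.21 SE, 95% interval −1.09 to −0.12).

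In the list of the unfolded protein and amino acid stress response 19 of 20 members were higher (median 0.35, 0.27 to 0.39 with 1 library left out). High-sucrose libraries, with list means of 4.89, 4.91 and 5.17 log2 CPM, all lay above the controls at 4.40, 4.77 and 4.68 log2 CPM. Such separation was not particular to this list. The mean of 2 Y-linked genes used as a sex check also separated, at 5.71, 5.69 and 5.76 log2 CPM against 5.51, 5.67 and 5.48 log2 CPM. The 3 members of the stress response list with the smallest p make serine and asparagine. Psat1, the aminotransferase of serine synthesis, was at 5.44, 8.23 and 8.35 CPM in the controls and at 9.32, 16.4 and 17.2 CPM in the high-sucrose libraries (0.96 ± 0.32 SE, 95% interval 0.21 to 1.71). Phgdh, the enzyme of the first step of that pathway, was at 8.55, 11.8 and 12.5 CPM against 16.6, 18 and 16.1 CPM (0.62 ± 0.22 SE, 95% interval 0.11 to 1.14). Asns, asparagine synthetase, was at 5.04, 11.8 and 4.64 CPM against 13.4, 15.6 and 15.9 CPM (1.06 ± 0.39 SE, 95% interval 0.16 to 1.97). These were the 3 of 20 members higher in all 3 high-sucrose libraries (2.91% of all features), and were picked by their p. The transcription factor Atf4, which drives them in amino acid shortage, did overlap, at 212, 239.8 and 316 CPM against 293, 222 and 373 CPM (0.21).

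The circadian clock differed most in high-sucrose 1 and 2, while high-sucrose 3 resembled the controls. Among activators, Arntl was at 66.2, 64.5 and 67.1 CPM in the controls and at 21.6, 9.95 and 65.8 CPM in the high-sucrose libraries (−1.02 ± 0.60 SE, 95% interval −2.43 to 0.38). Npas2, a partner of Arntl, was at 42, 88.1 and 48.7 CPM against 15.1, 5.55 and 79.5 CPM (−0.84), and Clock, the other partner, at 80.6, 65.8 and 78 CPM against 58.1, 55.2 and 73.3 CPM (−0.27). Arntl and Npas2 were thus low in high-sucrose 1 and 2 only, with Arntl nearly equal in the other 4 libraries. Of the 5 activators tested 2 were higher and 3 lower.

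The repressors Per2, Per3, Nr1d2 and Bhlhe41 and the outputs Dbp, Tef and Hlf were above every control in both libraries where Arntl was low, and the other repressors and outputs were not. Per2 was at 77.3, 45.6 and 66 CPM in the controls and at 195, 268 and 90.1 CPM in the high-sucrose libraries (1.55 ± 0.40 SE, 95% interval 0.60 to 2.50), the only one of 10 repressors whose groups did not overlap (6.16% of all features). Per3 was at 11, 20.4 and 22.1 CPM against 58.8, 95.8 and 18.8 CPM (1.70 ± 0.56 SE, 95% interval 0.39 to 3.01), and Nr1d2, a nuclear receptor that represses Arntl, at 24.2, 36.4 and 45.7 CPM against 65.2, 86.1 and 38.8 CPM (0.84). Per3 and Nr1d2 in high-sucrose 3 fell inside the control range. Cry1 had its highest value in high-sucrose 3, at 14.3, 10.6 and 6.77 CPM against 18.6, 12.1 and 30.3 CPM (0.94), unlike the period genes. In all, 8 of 10 repressors were higher and 2 lower (median 0.65, 0.37 to 1.06 with 1 library left out). Dbp, a transcription factor whose level swings with the clock, was at 5.90, 4.90 and 6.03 CPM in the controls and at 31.4, 28.8 and 5.23 CPM in the high-sucrose libraries (1.96 ± 0.59 SE, 95% interval 0.56 to 3.35). Tef, of the same family, was at 32.6, 17.8 and 40.2 CPM against 74, 92.6 and 33.3 CPM (1.14 ± 0.43 SE, 95% interval 0.13 to 2.16). Of 6 outputs 4 were higher and 2 lower (median 0.54). Nfil3, a repressor at the same sites as Dbp and Tef, had its lowest values in high-sucrose 1 and 2, at 48.3, 46.8 and 90.2 CPM against 34.5, 24.3 and 90.7 CPM (−0.31). The time of day at which arteries were taken is not given in the sources used here.

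**Figure D3:**
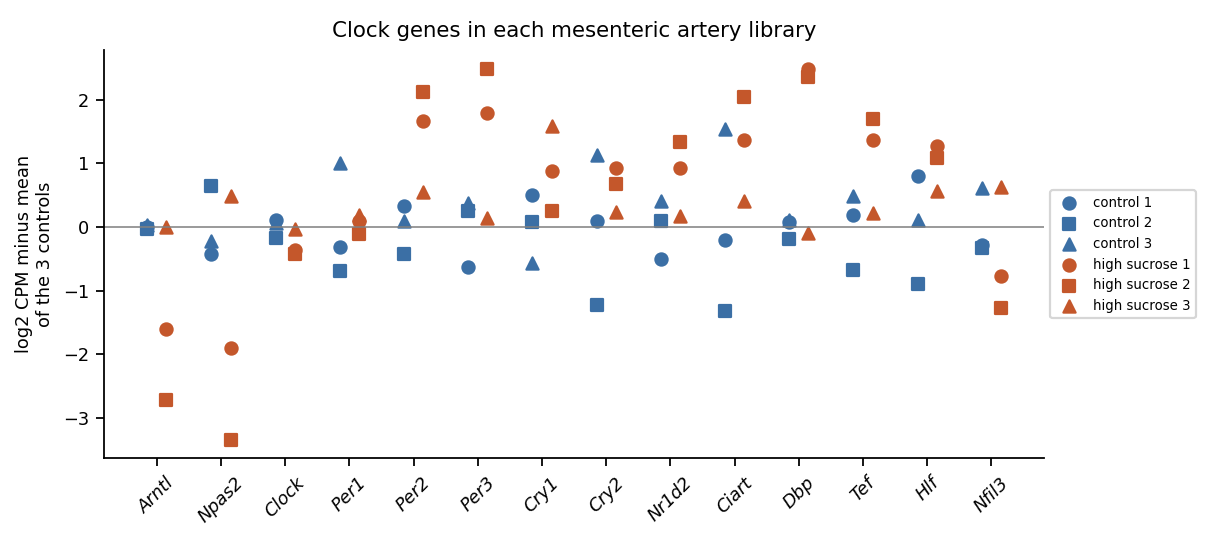
For each of 14 clock genes the vertical axis gives log2 CPM in each library minus the mean of the 3 controls, with blue for control, orange for high sucrose and circle, square and triangle for replicates 1, 2 and 3. High-sucrose 1 and 2 lie low for Arntl and Npas2 and high for Per2, Per3 and Dbp. High-sucrose 3 lies near the controls for these genes, but for Per2 it is above every control and below high-sucrose 1 and 2.

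The start regions of a repressor and an activator are shown because they carry elements through which the loops of the clock are wired. Both are RefSeq windows of GRCr8 of the same length as above. Capitals in Per2, chr9:99496944-99497243 on the minus strand, mark a D-box (TTATGTAA, the site bound by Dbp and Tef), 192 to 185 bases before the start.
Per2 promoter: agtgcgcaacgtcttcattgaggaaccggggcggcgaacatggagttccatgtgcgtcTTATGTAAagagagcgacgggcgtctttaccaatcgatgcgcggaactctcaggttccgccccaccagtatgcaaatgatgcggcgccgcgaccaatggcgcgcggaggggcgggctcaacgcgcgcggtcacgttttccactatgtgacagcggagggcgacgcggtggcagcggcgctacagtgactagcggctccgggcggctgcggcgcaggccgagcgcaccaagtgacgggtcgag
Capitals in Arntl, listed under its current symbol Bmal1, chr1:176766078-176766377 on the plus strand, mark a site for ROR and REV-ERB receptors such as Nr1d2 (TAGGTCA), 16 to 10 bases before the start.
Bmal1 promoter: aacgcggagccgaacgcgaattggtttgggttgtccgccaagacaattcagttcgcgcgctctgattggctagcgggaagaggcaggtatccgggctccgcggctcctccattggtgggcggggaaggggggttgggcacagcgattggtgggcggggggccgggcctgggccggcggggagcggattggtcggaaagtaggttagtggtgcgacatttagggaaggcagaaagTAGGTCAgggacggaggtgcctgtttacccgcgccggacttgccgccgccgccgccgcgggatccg
On either strand the D-box was in 0.893% and the receptor site in 2.63% of all promoters. The D-box was in 1 of 9 tested repressors with an entry and the receptor site in 1 of 5 activators. The E-box (CACGTG), bound by Arntl with Clock or Npas2, was in 4 of these 9 repressors, 1 of 4 output factors and 0 of 5 activators, and in 6.42% of all promoters. These matches are descriptions of sequence only.

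Interferon-stimulated genes, which cells switch on against viruses, were mostly lower after prenatal sucrose. Among 27 tested members 23 were lower and 4 higher (median −0.54, −0.67 to −0.38 with 1 library left out). The list averaged 3.962, 4.308 and 4.388 log2 CPM in the controls and 3.549, 3.585 and 4.076 log2 CPM in the high-sucrose libraries. List means thus overlapped, with high-sucrose 3 above control 1. In 9 of the 27 all high-sucrose libraries lay below all controls (3.25% of all features), and in 1 above (2.91%). Mx2, an antiviral GTPase, was at 16.4, 11 and 24.4 CPM in the controls and at 6.19, 5.07 and 8.22 CPM in the high-sucrose libraries (−1.41 ± 0.35 SE, 95% interval −2.22 to −0.60). Its paralogue Mx1 was at 7.76, 9.46 and 14.6 CPM against 3.74, 4.98 and 5.32 CPM (−1.18). Dhx58, a sensor of viral RNA, was at 8.02, 8.84 and 8.63 CPM against 3.59, 2.68 and 5.23 CPM (−1.15 ± 0.32 SE, 95% interval −1.90 to −0.40). Ifi27l2b was at 44.1, 52.9 and 47.1 CPM against 33.3, 35.7 and 32.7 CPM (−0.50). The groups were separate for all 4. Reads of Mx1 and Mx2, which are similar in sequence, may have been shared between them in counting.

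The 4 higher members were Bst2, Irf7, Ifit3 (0.15) and Herc6 (0.11), the last 3 with overlap. Bst2, tetherin, which holds budding virus at the cell surface, was higher in all 3, at 92.8, 90.1 and 74.6 CPM against 152, 100.2 and 186 CPM (0.77 ± 0.25 SE, 95% interval 0.18 to 1.36). Irf7, a transcription factor of the interferon response, was at 16.2, 21.3 and 40.6 CPM against 11.1, 37.7 and 64.1 CPM (0.53) and varied more within groups than between them. The window of Bst2, chr16:18254918-18255217 on the minus strand (RefSeq, GRCr8), is shown because it holds the interferon-stimulated response element, here 2 units of GAAA with 2 bases between them, to which the interferon-activated factor ISGF3 binds, while the gene itself was higher in high sucrose. Capitals mark 2 overlapping matches, 131 to 116 bases before the start.
Bst2 promoter: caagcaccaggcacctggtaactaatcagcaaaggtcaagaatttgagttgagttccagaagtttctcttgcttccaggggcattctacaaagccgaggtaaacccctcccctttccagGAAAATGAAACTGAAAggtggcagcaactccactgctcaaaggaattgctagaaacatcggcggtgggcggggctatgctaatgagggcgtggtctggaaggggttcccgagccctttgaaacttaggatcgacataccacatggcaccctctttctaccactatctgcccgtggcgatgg
On either strand the element was in 14 of the 19 tested members with an entry and in 3.92% of all promoters.

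Immune cell markers did not follow 1 direction. Lymphocyte markers had 7 of 8 tested members lower (median −0.43). Of these Ptprc, the leukocyte antigen CD45, was at 14.1, 26.5 and 33.8 CPM in the controls and at 8.63, 16.6 and 27.9 CPM in the high-sucrose libraries (−0.49), with overlap, and the other 7 were under 5 CPM in every library. Cd2, an adhesion receptor of T cells, was at 1.26, 2.36 and 1.76 CPM in the controls and at 0.764, 0.191 and 0.677 CPM in the high-sucrose libraries (−1.68 ± 0.61 SE, 95% interval −3.11 to −0.25). Macrophage markers had 11 of 15 higher (median 0.33), with Cd163, a scavenger receptor, at 17.9, 36.6 and 8.72 CPM against 24.4, 52.5 and 31.7 CPM (0.78). Adgre1, the macrophage antigen F4/80, had the smallest p of that list and went the other way, at 8.95, 27.1 and 9.84 CPM against 4.89, 6.80 and 10.5 CPM (−1.04 ± 0.51 SE, 95% interval −2.24 to 0.15). The list of antigen presentation had 8 of 13 higher and 5 lower. Psmb9, an interferon-induced part of the immunoproteasome, was at 20.4, 35.1 and 33.7 CPM against 17.6, 12.7 and 22.4 CPM (−0.76 ± 0.29 SE, 95% interval −1.44 to −0.08), and overlapped through control 1. What part the makeup of immune cells had in the interferon list was not tested.

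Markers of the fibroblasts of the outer coat were lower in high sucrose on average, though most overlapped between the groups. All 15 tested markers had a fold change below 0 (median −0.43, −0.58 to −0.27 with 1 library left out), and 6 were lower in all 3 high-sucrose libraries (3.25% of all features). The list averaged 7.93, 8.43 and 7.96 log2 CPM in the controls and 7.73, 7.31 and 7.87 log2 CPM in the high-sucrose libraries, lowest in high-sucrose 2 and highest in control 2. Thy1, a surface glycoprotein of fibroblasts and nerves, was at 12.9, 19 and 18.6 CPM in the controls and at 6.27, 8.14 and 9.00 CPM in the high-sucrose libraries (−1.11 ± 0.26 SE, 95% interval −1.71 to −0.51). Islr, a leucine-rich surface protein of stromal cells, was at 41.9, 49.2 and 46.3 CPM against 26.9, 21.5 and 30.8 CPM (−0.79 ± 0.19 SE, 95% interval −1.23 to −0.36). Clec3b, tetranectin, was at 228, 201 and 242 CPM against 166, 127 and 151 CPM (−0.60), and Pi16, a marker of universal fibroblasts, at 453, 352 and 476 CPM against 230.3, 118 and 325 CPM (−0.93). The groups were separate for each of these 4. The defining markers Pdgfra and Dcn overlapped. Pdgfra, a growth factor receptor, was at 109.5, 196 and 98.6 CPM against 115, 78.2 and 136 CPM (−0.30), and Dcn, decorin, at 3655, 9379 and 2881 CPM against 4033, 3713 and 4144 CPM (−0.42), where control 2 was far above the other libraries. Both had a fold change above 0 without control 2, and Dcn also in limma-voom.

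Structural genes of the wall were lower more often than higher, 23 against 9 of 32 collagen and elastic fibre genes (median −0.11). Fbn1, fibrillin 1 of the elastic fibre, was at 461, 536 and 625 CPM in the controls and at 333, 257 and 339.6 CPM in the high-sucrose libraries (−0.80 ± 0.22 SE, 95% interval −1.32 to −0.29). Col14a1, a collagen on the surface of fibrils, was at 1001, 1227 and 1141 CPM against 819, 626 and 839 CPM (−0.56 ± 0.23 SE, 95% interval −1.09 to −0.03). The groups did not overlap for these 2 of the 32, a share near the 6.16% of all features. Elastin (Eln) was at 2502, 903 and 2702 CPM against 1463, 1310.3 and 1955 CPM (−0.37 ± 0.43 SE, 95% interval −1.37 to 0.63), and Col3a1 at 3132, 2241 and 4996 CPM against 4056, 1669 and 3393 CPM (−0.19 ± 0.43 SE, 95% interval −1.19 to 0.82), both with overlap. Mmp14, a membrane metalloproteinase from the list of proteases and matricellular proteins, was lower in all 3, at 111, 108 and 92.7 CPM against 89.5, 62.1 and 73.2 CPM (−0.47). Without high-sucrose 2 the median of the collagen and elastic fibre list was 0.00.

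**Figure D4:**
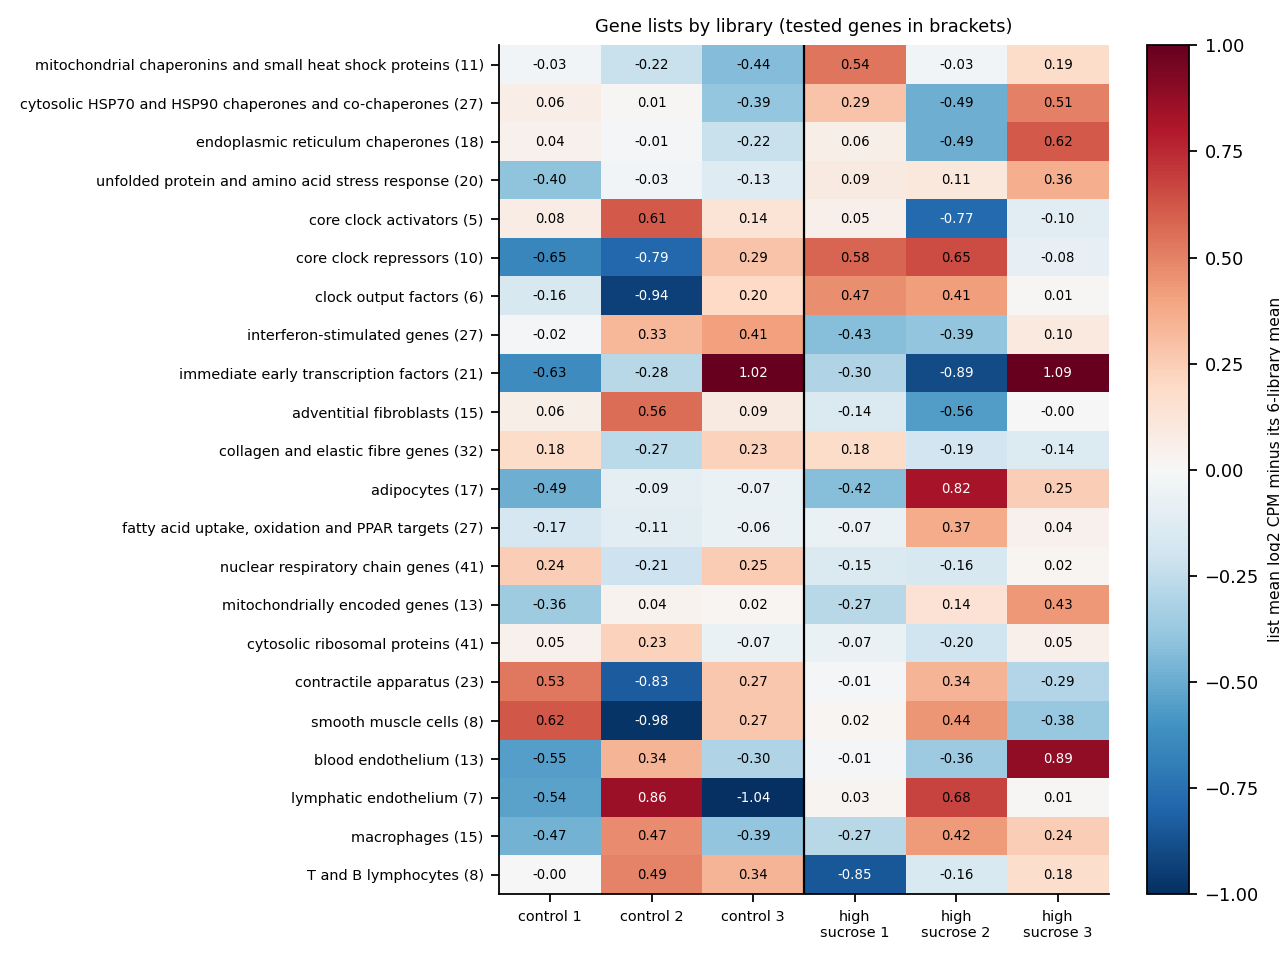
Rows are 22 gene lists with the number of tested genes in brackets, and columns are the 6 libraries, with control to the left of the line. Each cell gives the mean log2 CPM of the list minus its mean over the 6 libraries, red above and blue below. The list of the unfolded protein and amino acid stress response lies above every control in all high-sucrose libraries. Fibroblast markers and core clock activators lie below every control in all of them. The gap is small in high-sucrose 3 for the fibroblast markers and in high-sucrose 1 for the activators. Immediate early genes are high in control 3 and high-sucrose 3.

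Adipocyte genes were highest in high-sucrose 2. The adipocyte markers had 14 of 17 members higher (median 0.59), with list means of 5.21, 5.61 and 5.63 log2 CPM in the controls and 5.28, 6.52 and 5.95 log2 CPM in the high-sucrose libraries. Without high-sucrose 2 the median was 0.08. Adipoq, the adipocyte hormone adiponectin, was at 158, 212 and 207 CPM in the controls and at 108, 264 and 244 CPM in the high-sucrose libraries (0.09), lowest in high-sucrose 1. Cidec, which fuses lipid droplets, was at 33.9, 50.7 and 43 CPM against 48.1, 147 and 93.4 CPM (1.18). How much perivascular fat was dissected with each artery was not measured.

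Within fatty acid uptake and oxidation 21 of 27 members were higher and 6 lower (median 0.26). Without high-sucrose 2, the library highest in adipocyte markers, the median was 0.10. List means overlapped, with high-sucrose 1 (5.348 log2 CPM) below control 3 (5.354 log2 CPM) and high-sucrose 2 highest (5.790 log2 CPM). Angptl4, an inhibitor of lipoprotein lipase, was at 35.4, 44.7 and 35.6 CPM in the controls and at 69.5, 52.1 and 80.3 CPM in the high-sucrose libraries (0.80 ± 0.21 SE, 95% interval 0.31 to 1.29). Cpt1a, which admits long-chain fatty acids to mitochondria, was at 59.2, 39.8 and 62.5 CPM against 81.7, 108 and 60.7 CPM (0.63). Against this direction, Crot, which prepares medium-chain acids of peroxisomes for export, was at 69.8, 84.9 and 88.4 CPM against 49, 51.7 and 45.8 CPM (−0.73 ± 0.16 SE, 95% interval −1.11 to −0.35). Fabp3, a fatty acid carrier of muscle, was at 13.5, 11.8 and 18.3 CPM against 7.87, 6.41 and 11.1 CPM (−0.78). Angptl4, Crot and Fabp3 were separated between the groups, and Cpt1a was not. In the list 2 members were higher (2.91% of all features) and 2 lower (3.25%) without overlap.

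Insulin signalling genes had no common direction, 12 of 23 higher and 11 lower (median 0.00). Pik3r1, the regulatory p85 alpha subunit of PI3 kinase, was at 66.7, 57.2 and 69.1 CPM in the controls and at 41.1, 43.5 and 43.7 CPM in the high-sucrose libraries (−0.59 ± 0.15 SE, 95% interval −0.95 to −0.23). It was lower in all 3, with the high-sucrose libraries close together. Igf1r, the receptor of insulin-like growth factor, was at 12.6, 21.1 and 14.8 CPM against 22.7, 37.4 and 18.4 CPM (0.69) and overlapped. Igfbp6, a binding protein for IGF2, was at 351, 306 and 258 CPM against 256, 142 and 227 CPM (−0.55), lower in all 3, and the kinase Gsk3b at 13.3, 13.4 and 10.2 CPM against 16.3, 16.4 and 16.5 CPM (0.41), higher in all 3. In the list 1 member was thus higher (2.91% of all features) and 2 were lower (3.25%) without overlap.

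In sugar uptake and glycolysis, the pathways nearest to the dams' diet, 16 of 28 tested members were higher and 12 lower (median 0.07), and the 95% interval lay within 2-fold for 19 of 28 (57.5% of all features). The groups were separate for 0 of the 28, where 6.16% of all features were. Hk2, the hexokinase of insulin-sensitive tissue, was at 9.55, 13.2 and 16.1 CPM in the controls and at 34.3, 27.9 and 9.29 CPM in the high-sucrose libraries (0.88 ± 0.46 SE, 95% interval −0.21 to 1.98). The glucose transporter Slc2a1 was at 8.95, 7.36 and 11.5 CPM against 14.5, 12.1 and 8.52 CPM (0.34 ± 0.29 SE, 95% interval −0.35 to 1.03). Both were lowest of their group in high-sucrose 3.

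Genes that handle reactive oxygen had 17 of 29 members higher and 12 lower (median 0.07). Gclc, the first enzyme of glutathione synthesis, was at 58.9, 84.1 and 92.1 CPM in the controls and at 121, 114 and 117 CPM in the high-sucrose libraries (0.59 ± 0.20 SE, 95% interval 0.11 to 1.06), with no overlap. Txnrd1, thioredoxin reductase, was at 46.1, 82.1 and 61.7 CPM against 106, 86.6 and 79.3 CPM (0.52). Hmox1, heme oxygenase 1, was at 6.43, 32.2 and 6.40 CPM against 130.1, 15.9 and 21.4 CPM (1.90), with high-sucrose 1 far above the other libraries.

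Nuclear genes of the respiratory chain were lower in 37 of 41 (median −0.21, −0.37 to −0.13 with 1 library left out). Their list means were 6.46, 6.01 and 6.47 log2 CPM in the controls and 6.07, 6.06 and 6.23 log2 CPM in the high-sucrose libraries. The groups thus overlapped, with control 2 the lowest library of all. Ndufa13, a subunit of complex I, was at 81.9, 57.8 and 85.1 CPM in the controls and at 55.8, 46.7 and 57.8 CPM in the high-sucrose libraries (−0.49 ± 0.20 SE, 95% interval −0.96 to −0.02). Ndufs8, another, was at 87, 61.1 and 91.4 CPM against 59.8, 56.2 and 58.3 CPM (−0.46 ± 0.19 SE, 95% interval −0.91 to −0.01). Both were at the high-sucrose level, or near it, in control 2. The 13 mitochondrially encoded genes went the other way, 12 higher and 1 lower (median 0.21), with list means of 11.65, 12.04 and 12.02 log2 CPM in the controls and 11.73, 12.15 and 12.44 log2 CPM in the high-sucrose libraries, which overlapped. Cytosolic ribosomal proteins were lower in 37 of 41 (median −0.13), and their 95% intervals lay within 2-fold for all 41. Their list means also overlapped, at 8.91, 9.10 and 8.80 log2 CPM in the controls and 8.80, 8.67 and 8.91 log2 CPM in the high-sucrose libraries.

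Genes of artery function showed no common direction, and their intervals were wide. The contractile apparatus had 8 of 23 members higher and 15 lower (median −0.05), with the interval within 2-fold for 10. Myh11, the smooth muscle myosin heavy chain, was at 14062, 2926 and 8287 CPM in the controls and at 6574, 7875 and 5639 CPM in the high-sucrose libraries (−0.33 ± 0.53 SE, 95% interval −1.57 to 0.91). Acta2, the smooth muscle actin, was at 8119.9, 1043 and 4172 CPM against 3214, 4060.1 and 2082 CPM (−0.51 ± 0.67 SE, 95% interval −2.08 to 1.06). Control 1 was the highest and control 2 the lowest of the 6 for both, so the controls spanned the high-sucrose libraries.

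Calcium and potassium channels were likewise mixed, with 14 of 26 calcium channel and pump genes higher (median 0.03) and 11 of 19 potassium channel genes higher (median 0.15). Cacna1c, the pore of the L-type calcium channel, was at 88.8, 123 and 92.9 CPM in the controls and at 126, 165 and 74.1 CPM in the high-sucrose libraries (0.26 ± 0.31 SE, 95% interval −0.46 to 0.98). Kcnma1, the pore of the large-conductance calcium-activated potassium channel, was at 54.8, 14.1 and 34.1 CPM against 36.1, 80.6 and 20.9 CPM (0.42 ± 0.60 SE, 95% interval −1.01 to 1.84). Its subunit Kcnmb1 was at 134, 53.9 and 121 CPM against 116, 167 and 60.4 CPM (0.15 ± 0.45 SE, 95% interval −0.92 to 1.22). All 3 overlapped, and Kcnma1 and Kcnmb1 followed smooth muscle markers in being lowest in control 2.

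Of 23 constrictor receptors and ligands 8 were higher and 15 lower (median −0.19), and 1 was separated between the groups (6.16% of all features). The list mean went the other way and was higher in every high-sucrose library, by little in high-sucrose 1. It was at 4.07, 3.83 and 3.98 log2 CPM in the controls and 4.08, 4.14 and 4.18 log2 CPM in high sucrose. Ednrb, the endothelin B receptor, which clears endothelin and mediates dilation from the endothelium and constriction from muscle, was at 4.64, 12.5 and 4.73 CPM in the controls and at 21.9, 18.8 and 12.8 CPM in the high-sucrose libraries (1.29 ± 0.44 SE, 95% interval 0.25 to 2.33). Control 2 came close to the lowest high-sucrose library. Agtr1a, the angiotensin II receptor, was at 40.1, 98.5 and 43.2 CPM against 36.3, 30.6 and 51.2 CPM (−0.62 ± 0.39 SE, 95% interval −1.54 to 0.29), and Npy1r, a receptor of neuropeptide Y, at 169, 129 and 208 CPM against 90.8, 151 and 135 CPM (−0.42 ± 0.27 SE, 95% interval −1.05 to 0.20). The ATP receptor P2rx1 was at 797, 21.9 and 773 CPM against 372, 737 and 353 CPM (−0.12), with control 2 far below the other libraries.

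Dilator pathways had 15 of 28 members higher and 13 lower (median 0.08). Nos3, the endothelial nitric oxide synthase, was at 80.6, 241 and 243 CPM in the controls and at 178, 174 and 486 CPM in the high-sucrose libraries (0.57 ± 0.55 SE, 95% interval −0.74 to 1.88). Gucy1a1, a subunit of the guanylate cyclase that nitric oxide activates, was at 350.1, 373 and 409 CPM against 318, 188 and 333 CPM (−0.43 ± 0.26 SE, 95% interval −1.04 to 0.17). Its partner Gucy1b1 was at 126, 95 and 137 CPM against 102, 86.2 and 91.3 CPM (−0.36 ± 0.19 SE, 95% interval −0.81 to 0.09). Gucy1a1 was lower in all 3 high-sucrose libraries, Gucy1b1 overlapped, and Nos3 was highest in high-sucrose 3, the library highest in endothelial markers.

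**Figure D5:**
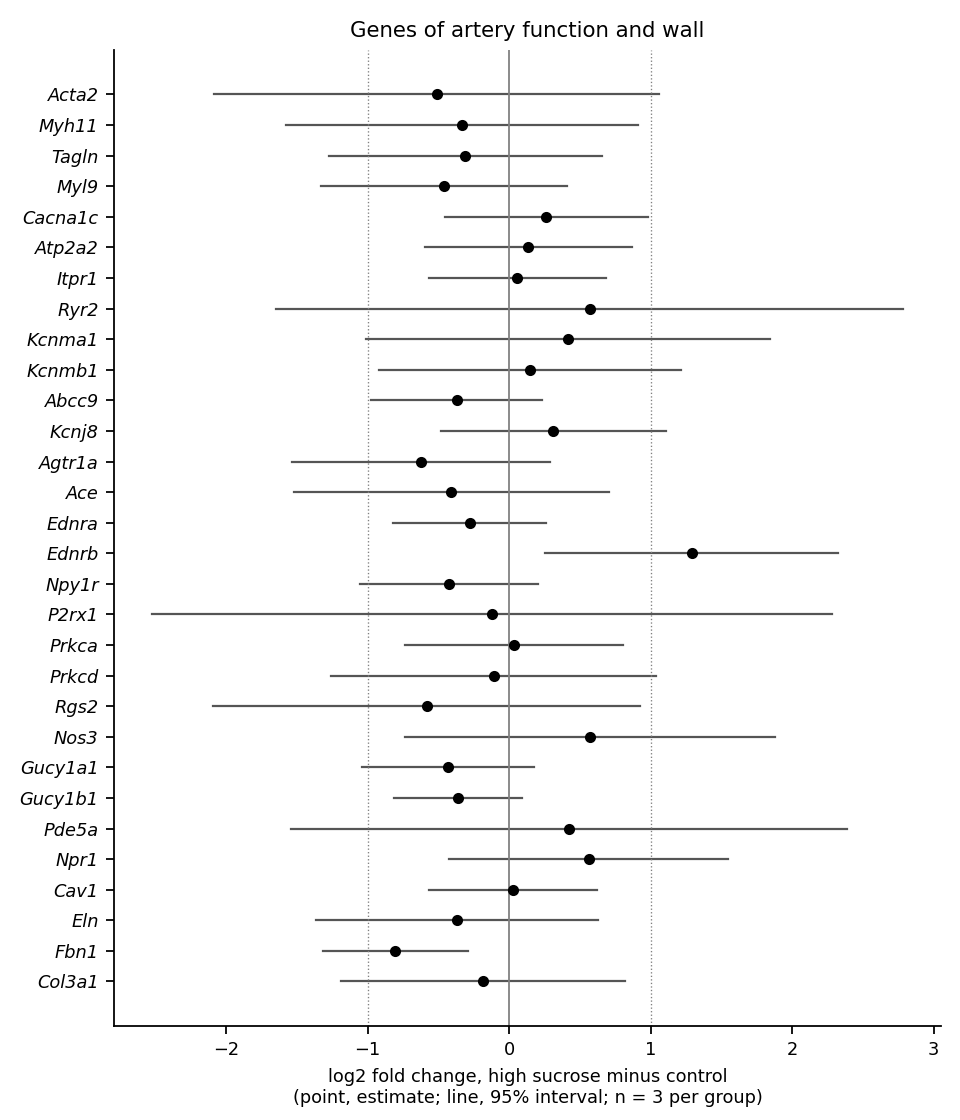
Points give the log2 fold change (high sucrose minus control) of 30 genes of artery function and wall, lines the 95% interval (edgeR, n = 3 per group), and dotted lines a 2-fold difference. Most intervals cross 0 and several exceed 2-fold on both sides. Those of Ednrb (0.25 to 2.33) and Fbn1 (−1.32 to −0.29) do not cross 0.

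Markers of other cells varied by library. The hemoglobin gene Hba-a2 was at 2084, 2579 and 2714 CPM in the controls and at 407, 192 and 3674 CPM in the high-sucrose libraries, so high-sucrose 1 and 2 held least. Nerve and Schwann cell markers had 8 of 12 tested members higher and 4 lower (median 0.07). Among them the myelin gene Mbp was at 7.96, 8.49 and 7.80 CPM against 8.10, 37.5 and 17.8 CPM (1.38), and Npy, the transmitter neuropeptide Y, at 31.7, 184 and 19.7 CPM against 22.2, 4.88 and 28.7 CPM (−2.08), highest in control 2. Mast cell and granulocyte markers had 5 of 9 higher and 4 lower (median 0.06). Higher members included the mast cell protease genes Cma1 (2.02 log2), Cpa3 (1.24) and Tpsb2 (1.19), all low in level and with overlap. The mast cell protease gene Mcpt1l1 was at 1.46, 3.94 and 2.78 CPM against 2.22, 13.2 and 12.1 CPM (1.75), and Kit, the receptor of stem cell factor on mast cells, at 4.18, 12.9 and 1.30 CPM against 3.90, 4.31 and 3.58 CPM (−0.64). Mbp and Mcpt1l1 were highest in high-sucrose 2 and next in high-sucrose 3, and Npy and Kit were not. What these markers contribute to the differences above was not tested.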

How the data were processed

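Poly(A) RNA was enriched with oligo(dT) beads and the second strand was marked, per the labels' protocols. Each library came as a file of raw counts deposited by the authors, whole numbers per feature and not normalized, and the submitters' processing notes name the build rn7. The aligner, the counter and the annotation, and whether strand was used, were not given in the sources used here, so antisense or near-identical genes may share reads. Of 30452 features 7092 had an Ensembl identifier that could not be named, and 235 names stood on 2394 lines, each kept as a feature of its own.

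Features with at least 10 counts in at least 3 of the 6 mesenteric libraries were tested in edgeR 4.0.16 (R 4.3.3; quasi-likelihood F test, TMM factors 0.918 to 1.06, Benjamini-Hochberg over all 14197), with no covariate. Standard errors and 95% intervals come from the same fit. CPM are on TMM-scaled totals, and log2 CPM for list means and components used a prior count of 0.5. Among features with 10 counts in exactly 3 libraries (455) the median total was 64 counts, against 49 in the 492 with exactly 2. Replicates of a group differed far beyond counting error (chi-square per degree of freedom 46.3 to 127), so none was counted as the same library deposited again. This does not tell separate animals from separate preparations of 1 pool. The script was tested on simulated data.

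Of 950 names in 50 lists, 808 were tested. Lists are described by counts and medians without a set test. Genes are named if among the 10 higher or 10 lower with the smallest p (symbol, average log2 CPM of at least 1), called by DESeq2, among the 4 smallest p of a list, among the 5 highest levels of a function list, or a defining marker. Fos, Hspa5, Atf4, Bst2, Irf7, Ifit3, Herc6, Nfil3, Ptprc, Kit, Dnajb6 and Dnaja2 were chosen after their values were seen. The members and lists were chosen with earlier results of these data known. Alternatives were median-ratio and upper quartile factors, limma-voom (limma 3.58.1, with weights for library quality), DESeq2 1.42.0, the newer quasi-likelihood method, other count filters, all 9 libraries, a replicate block, summed lines of the same name and each library left out. DESeq2 with each library left out was added after seeing the data. Promoters are RefSeq windows of GRCr8, a build other than that of the counts.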

Additional observations from a re-analysis of the deposited data

How the results depend on the processing

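edgeR and limma-voom called 0 genes in every setting run, and DESeq2 called 3. With 1 library left out the number called ran from 0 (edgeR, each library) to 56 (DESeq2 without control 2). DESeq2 called 1 gene without control 1, 0 without control 3, and 11, 9 and 18 without high-sucrose 1, 2 and 3. The 284 features at an unadjusted p under 0.05 became 803 without control 2, 471 without high-sucrose 3, 532 in limma-voom, 427 with no filter and 117 with all 9 libraries. With the replicate number as a block, edgeR called 0 genes and 292 features were at an unadjusted p under 0.05. Deviations of same-numbered libraries from their group means correlated at 0.204, −0.278 and 0.119, and those of other pairs at −0.426 to 0.285. With 3 libraries a group these values cannot tell whether shared numbers mark paired samples.

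Of 102 genes followed, 83 kept the sign of their log2 fold change in every setting run. Many of them were chosen by smallest p, which favours a kept sign, so this share does not describe genes in general. The other 19 changed sign, with these ranges when 1 library was left out: Myh11 −0.74 to 0.26, Acta2 −0.98 to 0.26, Cacna1c −0.012 to 0.51, Kcnmb1 −0.22 to 0.45, Kcnma1 −0.26 to 0.93, P2rx1 −0.69 to 0.29, Nos3 −0.10 to 0.83, Col3a1 −0.44 to 0.18, Dcn −0.72 to 0.28, Fos −2.21 to 0.64, Hspa5 −0.20 to 1.09, Irf7 −0.10 to 1.00, Pdgfra −0.49 to 0.075, Adipoq −0.12 to 0.41, Nfil3 −1.07 to 0.066, Ifit3 −0.29 to 0.69, Herc6 −0.72 to 0.53, Kit −1.11 to 0.50 and Pecam1 −0.27 to 0.20. In limma-voom P2rx1 was at 0.15, Dcn at 0.039, Irf7 at −0.14, Adipoq at −0.14, Herc6 at −0.19 and Kit at 0.37. With the replicate block Herc6 was at −0.082 and P2rx1 at 0.33. The cause was not tested. Of 47 list medians, 20 kept their sign in every setting. The between-group difference of libraries (median 0.34) was 0.34 with median-ratio factors and 0.31 with a stricter filter. With 3 libraries a group, differences under 2-fold were not detectable for most features of low level.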

Other observations

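Chromatin and cell cycle genes are described here as values only. Of 19 DNA methylation and chromatin enzymes 9 were higher and 10 lower (median −0.02), with the 95% interval within 2-fold for 14 of them. Uhrf1, which brings the maintenance methyltransferase to replicated DNA, was at 0.663, 1.40 and 0.650 CPM in the controls and at 1.38, 2.87 and 4.64 CPM in the high-sucrose libraries (1.70 ± 0.60 SE, 95% interval 0.30 to 3.10), near the limit of detection. Control 2 and high-sucrose 1 were almost equal. Dnmt1, that methyltransferase, was at 28.9, 25.3 and 32.9 CPM against 35.3, 36.6 and 28 CPM (0.20), with overlap. Cell cycle genes had 21 of 27 members higher (median 0.28), but the median was −0.17 without high-sucrose 3.

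Among growth signals and vessel types, Bmp2, a bone morphogenetic protein, was at 3.45, 2.28 and 3.80 CPM in the controls and at 4.13, 6.22 and 6.10 CPM in the high-sucrose libraries (0.78), higher in all 3. Lymphatic endothelium markers had 7 of 7 members higher (median 0.41), from 0.11 to 1.16 with 1 library left out. Lyve1, one of them, was at 54, 154 and 44 CPM against 84, 148 and 106 CPM, so control 2 was the highest library of all. Egln3, an oxygen sensor, was at 14.3, 13.8 and 11.3 CPM against 10.1, 7.18 and 10.2 CPM (−0.53), lower in all 3, while the hypoxia list had 9 of 16 higher.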
